A study of Mus musculus with 6 samples.

Results

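The genes described are 32 mouse genes of glucose uptake, glycolysis and the pentose phosphate pathway, with the lactate dehydrogenase genes, Pdk1 and Hif1a, the gene of a regulator of the pathway. They were taken by name from a table of 27179 gene numbers, and all 32 were found. The RNA of 6 libraries came from activated CD8+ T cells from gBT-I mice, whose transgenic T cell receptor recognises the gB498-505 peptide of herpes simplex virus. In the butyrate group (3 libraries), butyrate was present from day 3 until the harvest on day 6; the control group (3 libraries) had the same culture without it. In both groups whole spleen cells were activated with that peptide and lipopolysaccharide and given IL-2 on days 2 to 5. The culture therefore started from all spleen cells, and neither the butyrate dose nor a sort before harvest is given in the sources used here.

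Glycolysis turns glucose into pyruvate in the cytosol and yields ATP, and the pentose phosphate pathway branches from its first intermediate to make NADPH and ribose for nucleotides. Activated T cells are known for taking up much glucose and turning pyruvate into lactate even with oxygen present, a state driven by MYC and by the transcription factor HIF-1. Many steps have several isozymes, encoded by separate genes, with different tissue distribution and regulation. Butyrate, a short-chain fatty acid made by gut bacteria, enters metabolism as a fuel and also inhibits histone deacetylases. The comparison asks how it alters RNA levels in these cells.

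Library totals were 5383380 to 5809517 counts with butyrate and 5415021 to 6244350 in control, and a gene with a count of 0 could still have had up to 3 counts, or 0.480 to 0.557 CPM (counts scaled to library size by TMM, a trimmed mean of M-values). All 9 T cell markers checked were detected and 2 of them fell, at a summed 5657 to 6882 CPM with butyrate and 6394 to 6711 CPM in control. Of 12 granulocyte and mast cell markers 3 were called higher, Cxcr2 and Siglecf among them having passed the filter through butyrate alone (summed 27.0 to 56.7 CPM with butyrate and 11.1 to 25.0 CPM in control), and of 10 B cell markers Cd22, which passed in the same way, and Sdc1 were called higher (210 to 582 CPM with butyrate and 506 to 905 CPM in control, Pax5 at 0 throughout); their part in the results was not tested. Sdc1 reached the filter's minimum in 3 of 3 butyrate libraries and 1 of 3 control libraries. A gene was called higher or lower at an adjusted p under 0.05 in edgeR's quasi-likelihood F test over 11740 genes. Of these, 23.5% were called higher and 22.5% lower, and higher genes made up 51.1% of the calls, or 61.8% with upper quartile scaling. No label ties a replicate to its own mouse or culture, and the p-values therefore cover spread among these libraries that may be technical. In bulk RNA, fewer cells of a type and less RNA per cell cannot be told apart.

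With butyrate, 8 of the 31 members tested were called higher: Slc2a3, Hk2, Pgam1, Eno1, Eno2, Ldha, Ldhb and Hif1a. Another 4, namely Hk1, Pfkl, Aldoc and Pgd, were called lower. These are 25.8% and 12.9% of the members, beside the 23.5% and 22.5% of all genes. In either direction 38.7% of members were called, against 45.9% of all genes, so the share of changed genes is not a result about the pathway. Changes of at least 1.5-fold were called for 6 members (19.4%), against 26.0% of all genes. Of these, 5 were upward (16.1%, against 15.5% of all genes) and Aldoc was downward (3.23%, against 10.5%). The median log2 fold change was 0.14 over the 31 members and 0.00343 over all genes tested. Eno2 reached the filter's minimum in 3 of 3 butyrate libraries and 0 of 3 control libraries, so it could enter the test only as higher with butyrate; Ldhb reached it in 3 of 3 butyrate libraries and 2 of 3 control libraries. Hk3 was too low to test, and the other 19 members were not called, with log2 fold changes of -0.29 to 0.71. The groups did not overlap for 15 members (48.4%), against 57.1% of all genes.

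**Figure D1:**
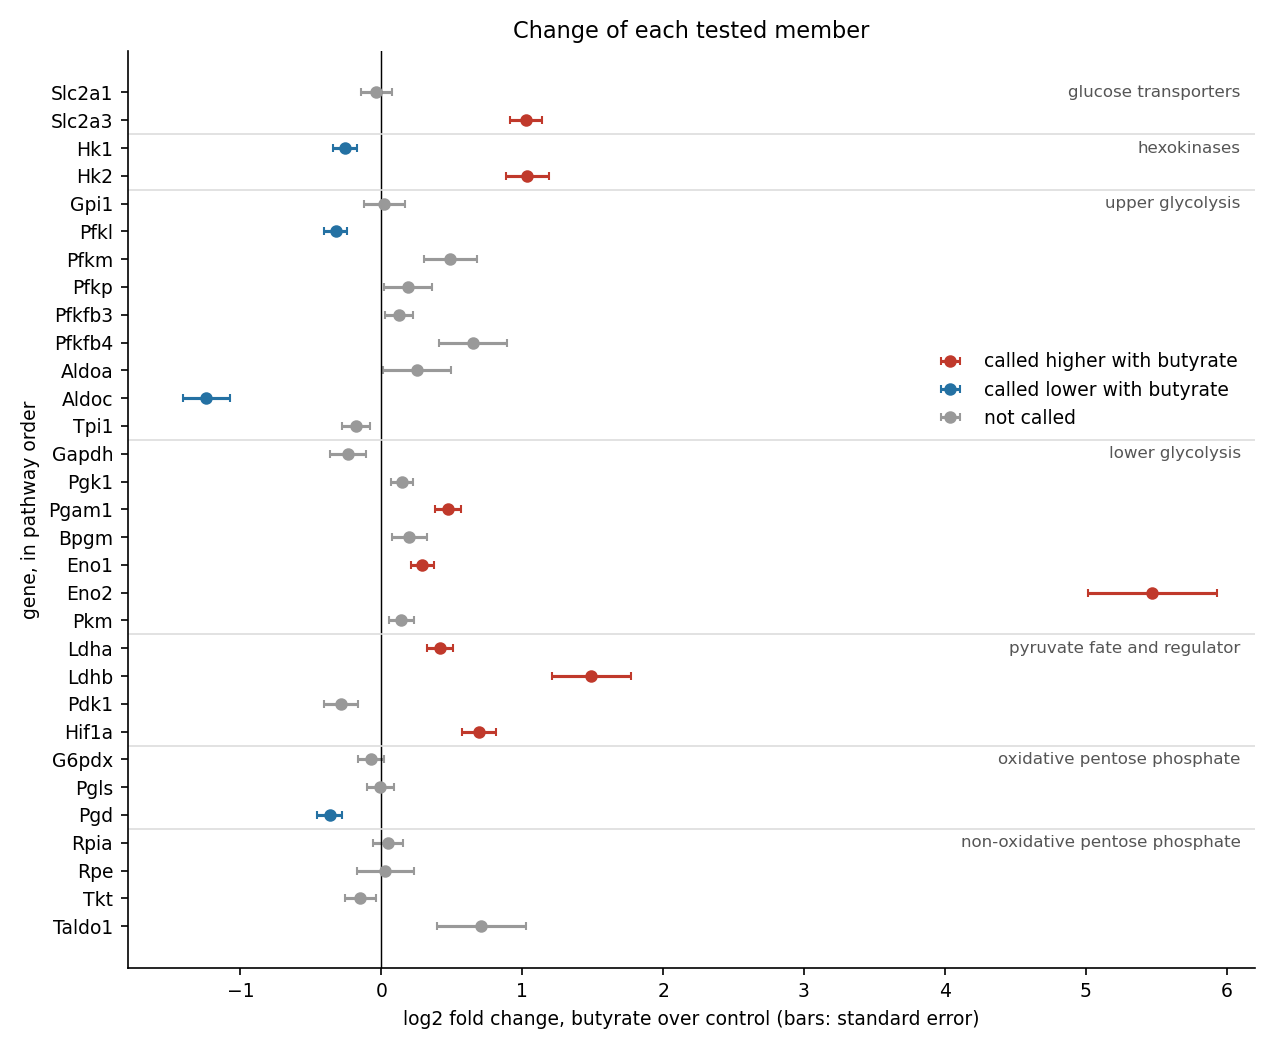
The log2 fold change of each of the 31 tested members, butyrate over control (x axis), with its standard error as a bar, in pathway order (y axis) and coloured by the edgeR call. Eno2 stands alone at 5.47, Aldoc is lowest at -1.24, and the pentose phosphate genes range from Pgd at -0.37, called lower, to Taldo1 at 0.71, which was not called.

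The 250 bases before an annotated start are printed for 5 members. Ldha, Hk2 and Hif1a were called higher and hold matches to motifs of known regulators. Eno2 and Aldoc had the largest rise and the largest fall among the members called. The windows of Hif1a and Ldha lie inside the annotated spans of these genes, which begin further upstream, at 73901324 and 46842274. Ldha and Aldoc each have 2 annotated windows, of which the upstream one is printed; the second window of Ldha (chr7:46846832-46847081) and that of Aldoc held 0 matches. The sequences are from RefSeq, build GRCm38.p6 (mm10), 5′ to 3′ on the gene's strand, and capitals mark ACGTG on either strand. ACGTG is a core recognised by HIF-1, and CACGTG, which holds ACGTG on both strands, is the E-box bound by MYC with MAX.
Ldha, chr7:46845554-46845803, plus strand: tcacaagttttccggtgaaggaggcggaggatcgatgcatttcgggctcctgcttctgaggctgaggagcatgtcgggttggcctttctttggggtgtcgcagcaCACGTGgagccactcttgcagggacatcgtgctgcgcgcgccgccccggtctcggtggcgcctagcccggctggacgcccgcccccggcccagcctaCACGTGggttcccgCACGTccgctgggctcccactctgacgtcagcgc
Hk2, chr6:82774455-82774704, minus strand: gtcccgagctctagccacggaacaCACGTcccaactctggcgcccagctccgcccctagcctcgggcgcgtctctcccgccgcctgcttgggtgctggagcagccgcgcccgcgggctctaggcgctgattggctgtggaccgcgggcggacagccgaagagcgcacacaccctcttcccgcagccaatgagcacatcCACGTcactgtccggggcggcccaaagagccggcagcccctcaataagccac
Hif1a, chr12:73907617-73907866, plus strand: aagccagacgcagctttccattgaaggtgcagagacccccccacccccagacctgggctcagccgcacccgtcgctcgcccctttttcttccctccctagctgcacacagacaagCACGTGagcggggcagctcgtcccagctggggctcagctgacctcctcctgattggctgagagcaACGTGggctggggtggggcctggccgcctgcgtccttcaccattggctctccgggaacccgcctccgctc
Eno2, chr6:124769674-124769923, minus strand: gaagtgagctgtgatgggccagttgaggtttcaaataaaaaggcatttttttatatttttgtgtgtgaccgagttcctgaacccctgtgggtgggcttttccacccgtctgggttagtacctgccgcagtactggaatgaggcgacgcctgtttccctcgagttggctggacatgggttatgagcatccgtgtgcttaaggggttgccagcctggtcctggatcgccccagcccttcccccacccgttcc
Aldoc, chr11:78322823-78323072, plus strand: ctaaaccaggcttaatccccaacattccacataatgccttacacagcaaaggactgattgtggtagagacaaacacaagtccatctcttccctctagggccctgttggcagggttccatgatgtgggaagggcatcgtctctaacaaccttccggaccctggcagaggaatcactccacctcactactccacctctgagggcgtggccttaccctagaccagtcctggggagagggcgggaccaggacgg

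Of the members, 31 had at least 1 such window, 45 windows in all because some genes have several starts. Slc2a3 had no window, so those of members called higher cover 7 genes. Windows of a gene can overlap, so a site can count more than once, as for Aldoa. ACGTG stood in 14 of the 45 member windows (31.1%), against 22.2% of the 11588 windows of genes tested and 16.6% of all 32851 windows. It stood in 4 of 10 windows of members called higher, those of Ldha, Hk2, Hif1a and Pgam1, in 0 of 7 windows of members called lower and in 9 of 27 windows of members not called. CACGTG stood in 4 member windows (8.89%), against 8.41% for genes tested and 6.02% for all windows; of the members called higher, Ldha and Hif1a had it. Only ACGTG and CACGTG were searched. Other sequences were not counted, GCGTG among them, which the printed window of Aldoc holds. The counts therefore do not show that windows without a match lack sites for HIF-1. They are letter matches in short windows and not measured binding.

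Of the glucose transporter genes, Slc2a3 rose and Slc2a1 was not called. Slc2a3, which encodes GLUT3, a high-affinity transporter (build GRCm38, chromosome 6, 122727809 to 122802363, gene 20527), had 298, 364 and 374 CPM with butyrate and 181, 152 and 176 CPM in control. Every butyrate library stood above every control library, and the log2 fold change was 1.03 (SE 0.11, edgeR adjusted p = 0.000191). Slc2a1, the gene of the widely expressed transporter GLUT1, had 132, 141 and 161 CPM with butyrate and 142, 136 and 166 CPM in control. Its groups overlapped throughout and it was not called (log2 fold change -0.03, SE 0.11, adjusted p = 0.812). Its sign turned without butyrate replicate 1 (0.03), without control replicate 3 (0.06) and with upper quartile scaling (0.05).

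Divided by exon length, Slc2a3 made up 52.2%, 55.5% and 53.0% of the level of the transporter pair with butyrate, against 38.2%, 35.1% and 33.8% in control. Exon length is the union of all annotated exons of a gene, and the size of every such share depends on this choice. The mean share was 53.5% ± 1.73 with butyrate and 35.7% ± 2.23 in control (SD, n = 3 each; exact two-sided permutation p = 0.1, the smallest that 3 against 3 libraries can give). Over the 16 isozyme shares computed, the adjusted exact p was 0.123 for each share that reached this floor. Summed CPM of the pair was 490 ± 54.1 with butyrate and 318 ± 27.2 in control (SD, n = 3, exact permutation p = 0.1).

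Hexokinases, which trap glucose in the cell as glucose 6-phosphate, moved in opposite directions. Hk2, the isozyme induced in activated and growing cells (chromosome 6, 82725025 to 82774454, gene 15277), had 192, 233 and 292 CPM with butyrate and 110, 107 and 132 CPM in control. The lowest butyrate library was above the highest control library (edgeR adjusted p = 0.000824, log2 fold change 1.04, SE 0.15). Hk1, the constitutive isozyme, averaged 133 ± 9.49 CPM with butyrate and 159 ± 7.67 CPM in control (SD, n = 3), a small fall (log2 fold change -0.26, adjusted p = 0.0329). This call was lost without butyrate replicate 2 (-0.24, adjusted p = 0.0899) or 3 (-0.22, 0.0908) and with upper quartile scaling (-0.18, 0.113). It was also lost without control replicate 1 (-0.21, 0.109), 2 (-0.27, 0.0696) or 3 (-0.28, 0.0558). Over all alternatives tried the adjusted p ran from 0.0115 to 1. The top value came from glmTreat, which tests against a fold of 1.5, and the highest under the other alternatives was 0.113.

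Per exon length, Hk2 made up 65.3%, 71.5% and 76.4% of the hexokinase level with butyrate, against 47.7%, 49.1% and 54.7% in control. The mean was 71.1% ± 5.57 with butyrate and 50.5% ± 3.71 in control (SD, n = 3, exact permutation p = 0.1). Hk3, an isozyme of myeloid cells, had 5, 6 and 9 counts with butyrate and 13, 4 and 8 in control, or 1.21 ± 0.399 and 1.46 ± 0.811 CPM in those groups. It was left out by the filter on low counts. Of 13 macrophage and dendritic cell markers, 4 of 7 tested were called higher, of which Zbtb46 passed the filter through butyrate alone; the list summed to 147 to 153 CPM with butyrate and 40.1 to 91.7 CPM in control, and Mrc1 had 0 counts in every control library. Their part in the level of Hk3 was not tested.

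**Figure D2:**
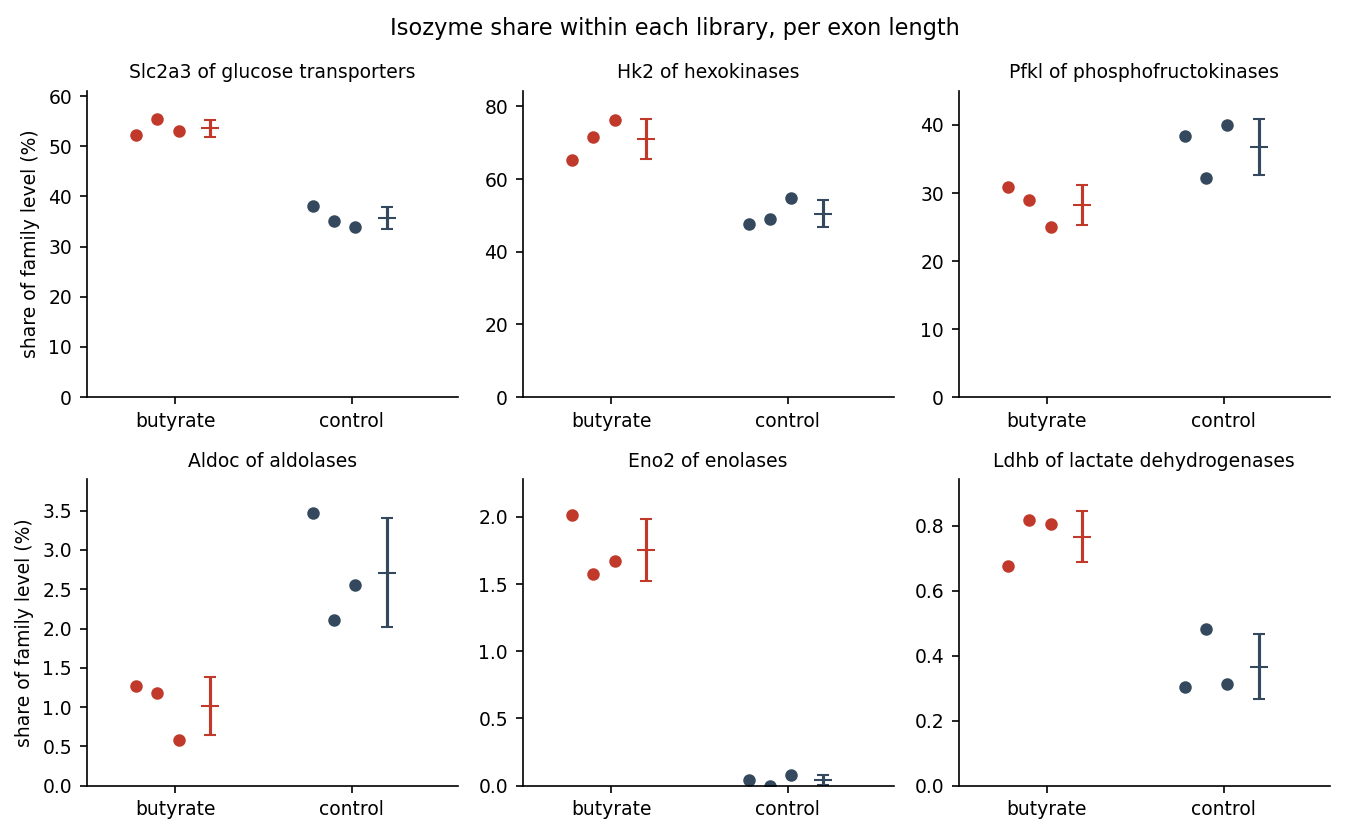
Share of 1 isozyme in the summed level of its family, per exon length, in each library (y axis, percent; x axis, butyrate and control; points are libraries, bars mean ± SD, n = 3). Slc2a3 and Hk2 take larger shares with butyrate, and Pfkl and Aldoc smaller ones. Families are summed over members only, which leaves Eno3 out of the enolases. In these sums Eno2 and Ldhb stay at most at 2.01% and 0.820% in all libraries.

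In upper glycolysis 2 of 9 members fell and 0 rose by edgeR's adjusted p, DESeq2 or limma voom. The edgeR shares over all genes tested were 22.5% lower and 23.5% higher. Pfkm and Pfkfb4 were higher at an unadjusted edgeR p under 0.05. Aldoc, the aldolase isozyme best known from brain (chromosome 11, 78323073 to 78327781, gene 11676), had 18.9, 12.9 and 12.2 CPM with butyrate and 34.6, 32.5 and 36.8 CPM in control. Every butyrate library was below every control library (edgeR adjusted p = 0.000489, log2 fold change -1.24, SE 0.17). Its share of the aldolase level per length was 1.01% ± 0.373 with butyrate and 2.71% ± 0.695 in control (SD, n = 3, exact permutation p = 0.1). Aldoa, the main aldolase here, had 1307, 963 and 1850 CPM with butyrate and 858, 1346 and 1252 CPM in control. Its groups overlapped and it was not called (log2 fold change 0.25, adjusted p = 0.413; -0.02 without butyrate replicate 3, 0.09 without control replicate 1 and 0.45 without butyrate replicate 2).

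Phosphofructokinase commits sugar to glycolysis. Of its isozyme genes, Pfkl, the liver type, fell to 61.3 ± 0.610 CPM with butyrate, against 76.6 ± 4.31 CPM in control (SD, n = 3; log2 fold change -0.32, edgeR adjusted p = 0.0111). Pfkp, the platelet type, averaged 256 ± 47.7 CPM with butyrate and 225 ± 49.4 CPM in control and was not called (adjusted p = 0.395). Pfkm, the muscle type, had 12.02, 18.6 and 13.7 CPM with butyrate and 11.3, 10.2 and 10.1 CPM in control. It was not called (log2 fold change 0.49, adjusted p = 0.0605), but was with the replicate number as a block (0.48, 0.0451), with upper quartile scaling (0.57, 0.0348) and without butyrate replicate 1 (0.62, 0.0287). Without butyrate replicate 2, the highest library, the log2 fold change was 0.29 and not called. Pfkl made up 28.2% ± 2.97 of the phosphofructokinase level per length with butyrate and 36.8% ± 4.12 in control (SD, n = 3, exact permutation p = 0.1). The lengths used were 6675 bases for Pfkl and 13401 for Pfkp, and other lengths would change the size of these shares.

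Pfkfb3 and Pfkfb4 encode enzymes that make and break fructose 2,6-bisphosphate, the activator of phosphofructokinase. Pfkfb4 had 15.0, 8.77 and 8.87 CPM with butyrate and 7.02, 7.05 and 6.65 CPM in control. The groups did not overlap, yet it was not called (log2 fold change 0.65, SE 0.24, edgeR adjusted p = 0.0535). It was called with the replicate block (0.63, adjusted p = 0.0261), without butyrate replicate 2 (0.79, 0.0468) or 3 (0.77, 0.0442) and under 4 other settings, and its adjusted p reached 0.701 at most. Butyrate replicate 1 held the high value, and without it the log2 fold change was 0.35 and not called. Pfkfb3 was not called (85.9 ± 8.46 CPM with butyrate and 78.9 ± 5.22 CPM in control, adjusted p = 0.337).

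The isomerase genes were not called. Tpi1, for triose phosphate isomerase, had 629, 598 and 723 CPM with butyrate and 680, 787 and 743 CPM in control (log2 fold change -0.18, edgeR adjusted p = 0.178). Gpi1, for glucose 6-phosphate isomerase, averaged 407 ± 92.2 CPM with butyrate and 401 ± 21.8 CPM in control (SD, n = 3, adjusted p = 0.914). The high value of Gpi1 in butyrate replicate 2 (513 CPM) set its mean: without that library the log2 fold change was -0.18, and without control replicate 2 it was -0.01.

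In lower glycolysis, where ATP is recovered, 3 of 7 members rose, and 0 fell by edgeR's adjusted or unadjusted p, DESeq2 or limma voom. By edgeR's adjusted p, 23.5% of all genes tested rose and 22.5% fell. Groups of so few genes cannot show a difference from these shares, and Eno2 could enter the test only as higher. The largest change was that of Eno2, which encodes the enolase of neurons (chromosome 6, 124760053 to 124769673, gene 13807). It had 54, 43 and 48 counts with butyrate and 1, 0 and 2 counts in control, or 9.99, 7.39 and 8.87 CPM with butyrate and 0.180, 0 and 0.324 CPM in control. The ratio of summed counts scaled by library size was 49.7 (exact 95% interval 16.7 to 244, covering counting error only), with an edgeR adjusted p of 6.23e-05. The fitted log2 fold change was 5.47, and 6.27 without control replicate 3 or 4.98 without control replicate 2, since it rests on 3 control counts. Even so, Eno2 was minor beside Eno1, at 1.75% ± 0.230 of their summed level per length with butyrate and 0.0414% ± 0.0396 in control (SD, n = 3, exact permutation p = 0.1). Eno3, outside this sum and named after its values were seen, had 9.44 CPM per kb with butyrate and 5.56 in control. Eno2 had 1.86 and 0.0357. Eno3 was called higher (log2 fold change 0.77, edgeR adjusted p = 0.0166).

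Of 10 neuronal markers, 3 passed the filter and were not called (edgeR adjusted p = 0.611 for Tubb3, 0.111 for Map2 and 0.936 for Syp), and the list summed to 15.4 to 20.8 CPM with butyrate and 11.7 to 19.9 CPM in control. The markers Syt1, Rbfox3, Nefm and Stmn2 had 0 counts in all 6 libraries, and Nefl, too low to test, had 2, 7 and 3 counts with butyrate and 0 in each control library. Their part in the level of Eno2 was not tested. Tpi1, the nearest member to Eno2 on chromosome 6 (124810586 to 124814158), was not called. Its groups overlapped. Tpi1 stood lower with butyrate in 3 of 3 pairs of libraries with the same replicate number, but no label pairs the samples. The same held for G6pdx and Gapdh, which were not called either.

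Eno1, the ubiquitous enolase, had 556, 528 and 596 CPM with butyrate and 455, 449 and 470 CPM in control, without overlap (log2 fold change 0.29, SE 0.08, edgeR adjusted p = 0.0183). The call was lost without butyrate replicate 3 (0.24, adjusted p = 0.0501) and without control replicate 2 (0.28, 0.0639). Over its alternatives the adjusted p ranged from 0.00597 to 1. The top value came from glmTreat, which tests against a fold of 1.5, and the highest under the other alternatives was 0.0639. Pgam1, for phosphoglycerate mutase, averaged 94.0 ± 7.68 CPM with butyrate and 67.6 ± 4.38 CPM in control (SD, n = 3; log2 fold change 0.47, SE 0.09, adjusted p = 0.00341). Pkm, whose product makes pyruvate, had 1595, 1468 and 1640 CPM with butyrate and 1327, 1502 and 1431 CPM in control, and was not called (log2 fold change 0.14, adjusted p = 0.230). Gene counts do not separate its M1 and M2 splice forms.

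Pgk1, for phosphoglycerate kinase, had non-overlapping groups (127 ± 6.17 CPM with butyrate and 115 ± 3.44 CPM in control, SD, n = 3) but was not called (log2 fold change 0.15, edgeR adjusted p = 0.145; 0.23, 0.0372 with upper quartile scaling). Bpgm makes 2,3-bisphosphoglycerate, abundant in red cells. It averaged 35.2 ± 3.19 CPM with butyrate and 30.6 ± 3.88 CPM in control and was not called (adjusted p = 0.220). Of 13 erythroid and platelet markers matched, only Hbb-b1 and Epor were tested, and both passed the filter through the butyrate group alone. Hbb-b1 had 16, 11 and 170 counts with butyrate and 1, 0 and 1 in control, so butyrate replicate 3 set the top of the range: the list summed to 8.94 to 74.8 CPM with butyrate and 1.11 to 4.87 CPM in control, with Epb42 at 0 in all libraries. Their part in the level of Bpgm was not tested.

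Gapdh, often used as a reference gene, stood at 23.3, 20.1 and 22.0 CPM with butyrate and 29.2, 22.8 and 25.0 CPM in control. It was not called (log2 fold change -0.24, edgeR adjusted p = 0.166; -0.13 without control replicate 1 and -0.15 with upper quartile scaling, not called in either). Per kilobase of exon, by the mean of both groups, it ranked 27 of 32 members, whereas Ldha, Aldoa, Pkm and Tpi1 held ranks 1 to 4. Gapdh had 5.28 ± 0.388 CPM per kb with butyrate and 6.21 ± 0.781 in control (SD, n = 3). Of the 50-base stretches of its protein-coding transcripts, 58.4% also occur in transcripts of other genes, and 89 other genes share at least 100 of them. The corresponding share was 68.0% for Pgk1, 49.5% for Eno1, 41.5% for Pgam1, 24.5% for Gpi1 and 23.7% for Pkm, and 0% for Slc2a3, Hk2, Aldoc, Tkt and Pgd.

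No source used here states the counting of reads that match several genes, and the levels of these genes are therefore uncertain. Eno1b, a near-identical copy of Eno1 that shares 1395 such stretches with it, was itself called higher (194 ± 10.6 CPM with butyrate and 161 ± 3.50 CPM in control, SD, n = 3; log2 fold change 0.27, edgeR adjusted p = 0.0204). Both rows of the pair may hold the same reads, so their calls in the same direction are not separate observations.

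**Figure D3:**
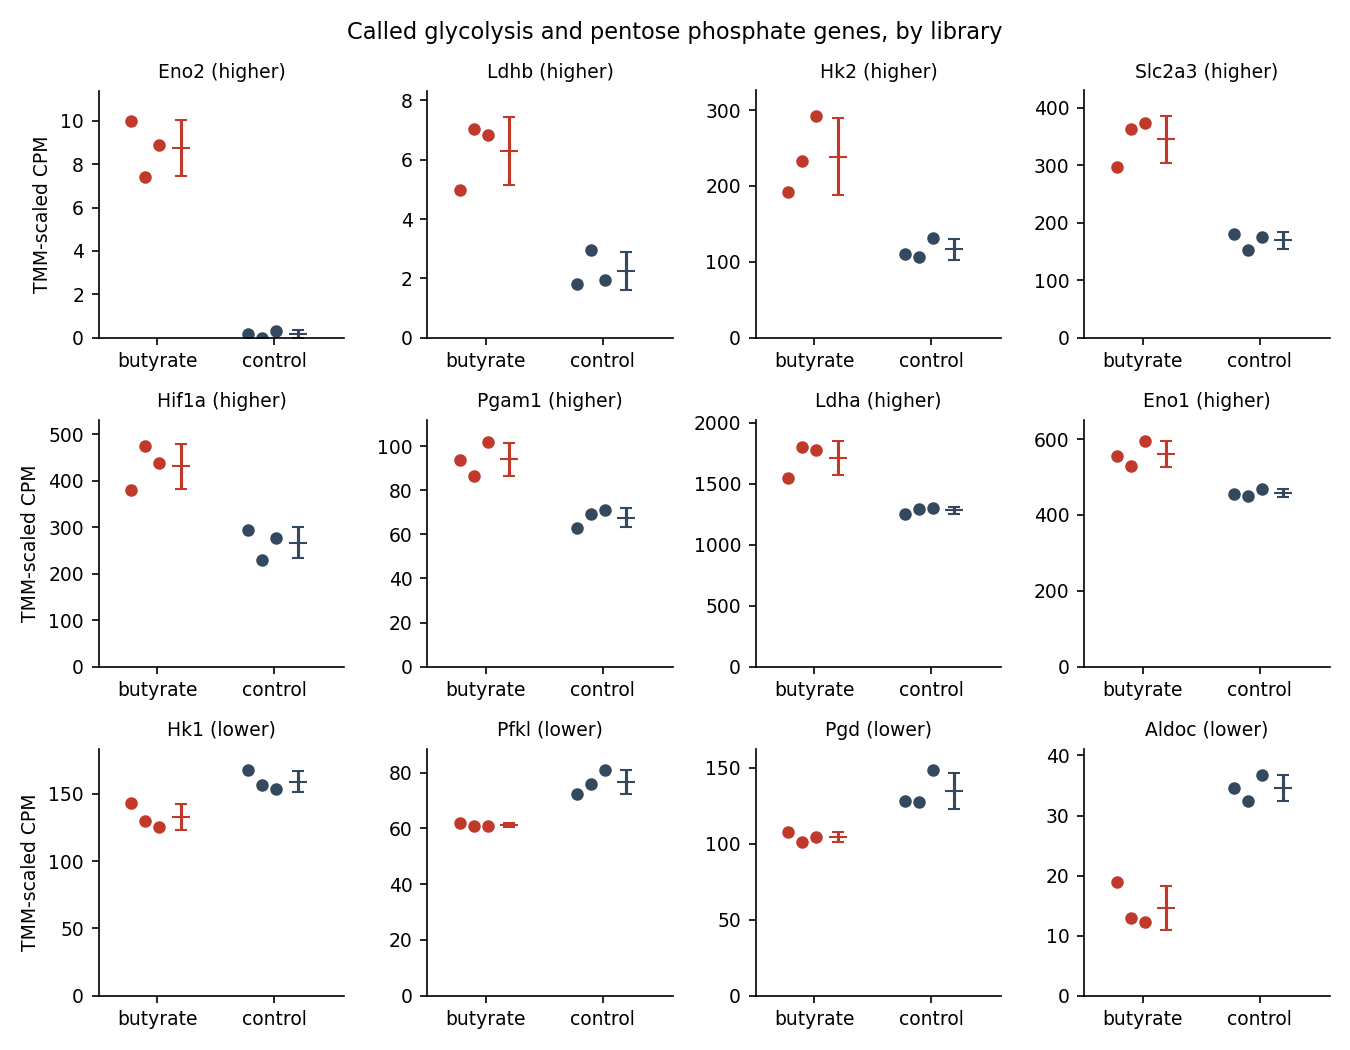
TMM-scaled CPM of the 12 called members in each library (y axes start at 0 and differ between panels; x axis, butyrate and control; points are libraries, bars mean ± SD, n = 3), ordered by log2 fold change. The groups do not overlap in any of these panels; Eno2 lies at 7.39 to 9.99 CPM with butyrate and at most at 0.324 CPM in control.

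Both lactate dehydrogenase genes rose. Ldha, whose product favours making lactate from pyruvate, had 1548, 1799 and 1778 CPM with butyrate and 1249, 1291 and 1304 CPM in control. Its level per length was the highest of the members by the mean of both groups. In control alone Aldoa stood above it, at 396 CPM per kb against 387 for Ldha. All butyrate libraries exceeded all control libraries (log2 fold change 0.41, SE 0.09, edgeR adjusted p = 0.00603). Ldhb, the heart-type chain, which favours pyruvate (chromosome 6, 142490249 to 142507957, gene 16832), had 4.99, 7.05 and 6.84 CPM with butyrate and 1.80, 2.97 and 1.95 CPM in control. Its log2 fold change was larger (1.49, SE 0.28, adjusted p = 0.00281), but its share of the dehydrogenase level per length was 0.766% ± 0.0790 with butyrate and 0.366% ± 0.101 in control (SD, n = 3, exact permutation p = 0.1). Ldha made up the rest, 99.2% ± 0.0790 with butyrate and 99.6% ± 0.101 in control. With shares of raw counts the difference for Ldha was -0.19 percentage points, against -0.40 per length.

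Pdk1, the kinase that restrains pyruvate dehydrogenase, averaged 157 ± 15.4 CPM with butyrate and 191 ± 27.8 CPM in control (SD, n = 3) and was not called (log2 fold change -0.29, edgeR adjusted p = 0.0792). It was called lower without control replicate 2 (-0.38, adjusted p = 0.0394) and with no filter (-0.33, 0.0483). Without control replicate 1, the highest library, the log2 fold change was -0.17 and not called. Among 13 tested genes of lactate and pyruvate transport and pyruvate dehydrogenase control, 5 rose and 3 fell (median log2 fold change 0.000735). The shares over all genes tested were 23.5% higher and 22.5% lower. The lactate carriers were in the rising group: Slc16a1 (MCT1, log2 fold change 0.51, adjusted p = 0.00583), Slc16a3 (MCT4, 0.34, 0.0399) and Bsg, their chaperone basigin, at 466 ± 58.3 CPM with butyrate and 315 ± 10.1 CPM in control (0.57, 0.00223). The carriers were named after their values were seen. The pyruvate dehydrogenase phosphatase genes split, with Pdp1 higher (0.62, 0.000927) and Pdp2 lower (-0.70, 0.00203), and Pdha1, a subunit of the enzyme, fell (-0.34, 0.0129; -0.28, 0.0628 without control replicate 3).

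Hif1a encodes the oxygen-regulated subunit of HIF-1, which activates glycolytic genes (chromosome 12, 73901324 to 73947554, gene 15251). It had 379, 476 and 439 CPM with butyrate and 294, 229 and 277 CPM in control. The groups were separate (log2 fold change 0.69, SE 0.12, edgeR adjusted p = 0.00179). RNA does not give the amount of this protein, which is set largely by its degradation.

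Of 13 HIF-1 pathway regulators, all tested, 5 rose and 4 fell (median log2 fold change -0.12), beside 23.5% and 22.5% of all genes tested. Among those that rose, Arnt2 passed the filter through butyrate alone. Hif3a reached the filter's minimum in 3 of 3 butyrate libraries and 1 of 3 control libraries. Epas1, the gene of HIF-2 alpha, had 25.2, 21.8 and 26.6 CPM with butyrate and 7.74, 4.64 and 6.16 CPM in control (log2 fold change 1.98, edgeR adjusted p = 0.000104). Arnt2 rose to 8.17 ± 1.11 CPM with butyrate, against 1.41 ± 0.226 CPM in control (SD, n = 3; 2.52, adjusted p = 0.000142). Arnt, which encodes the usual partner of HIF-1 alpha, fell (-0.46, 0.00909, named after its value was seen). So did Egln2, a prolyl hydroxylase gene whose product marks HIF-1 alpha for degradation (-0.49, 0.00345), and Hif1an, an asparaginyl hydroxylase gene (-0.35, 0.00753).

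HIF-1 targets outside glycolysis rose in 11 of 17 tested and fell in 3, beside 23.5% called higher and 22.5% lower of all genes tested. The median log2 fold change was 0.56 for the list and 0.00343 for all genes. The list was chosen with earlier results of these data known, and HIF-1 activity was not tested. Car9, among those that rose, passed the filter through butyrate alone. Ddit4, an inhibitor of mTORC1, had 508, 523 and 603 CPM with butyrate and 323, 334 and 318 CPM in control (log2 fold change 0.75, edgeR adjusted p = 0.000318). Ndrg1 averaged 135 ± 18.3 CPM with butyrate and 80.8 ± 7.90 CPM in control (SD, n = 3; 0.74, adjusted p = 0.00118). Stc2 (-1.04, 0.000536) and the mitophagy receptor gene Bnip3l (-0.46, 0.00218) fell. Vegfa, the angiogenic growth factor, was not called (37.2 ± 4.79 CPM with butyrate and 40.2 ± 5.01 CPM in control, 0.500), and was named after its value was seen.

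**Figure D4:**
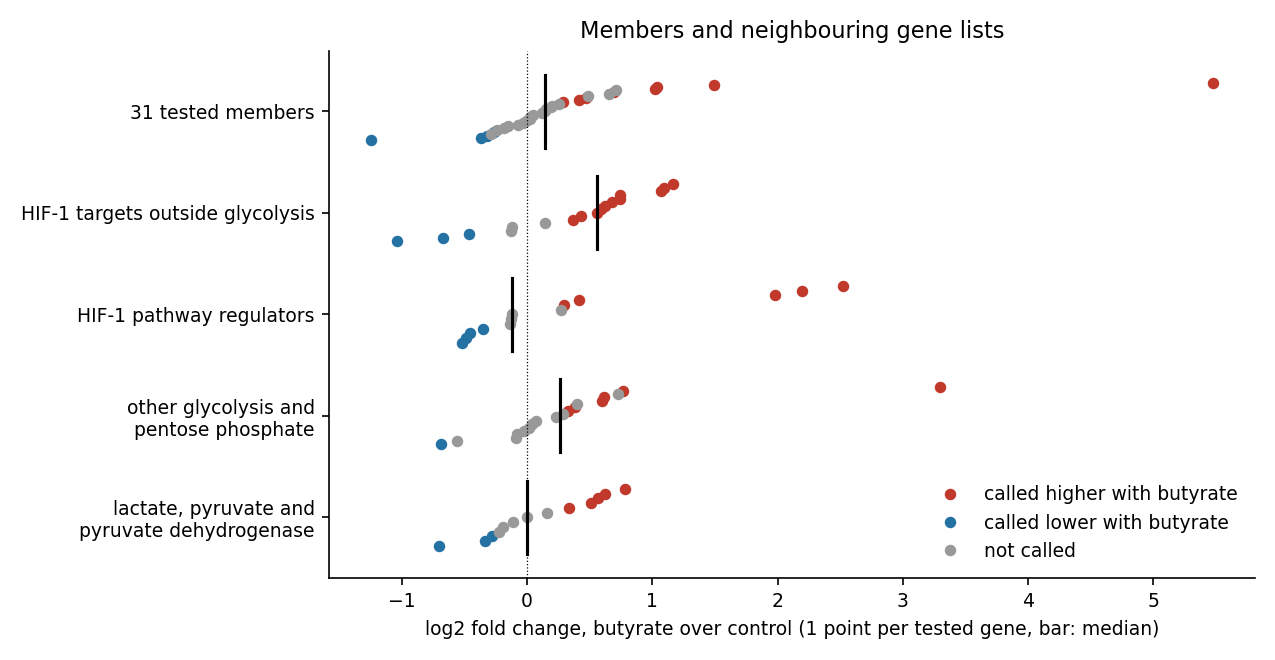
log2 fold changes (x axis, butyrate over control) of the 31 tested members and of the tested genes of 4 neighbouring lists (y axis); each point is a gene, coloured by its edgeR call, and bars are medians. The median is 0.14 for the members, 0.56 for HIF-1 targets outside glycolysis, -0.12 for HIF-1 pathway regulators, 0.26 for other glycolysis and pentose phosphate genes and 0.000735 for the pyruvate list.

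The pentose phosphate genes held 1 call in 7 tested, beside 45.9% of all genes called in either direction. Pgd, which makes NADPH in the oxidative branch, had 108, 101 and 105 CPM with butyrate and 128, 127 and 148 CPM in control (log2 fold change -0.37, SE 0.09, edgeR adjusted p = 0.00869). G6pdx, for the first enzyme of the branch, averaged 67.7 ± 4.93 CPM with butyrate and 71.4 ± 4.52 CPM in control (SD, n = 3, adjusted p = 0.532). Pgls, for the lactonase between them, averaged 52.2 ± 3.25 CPM with butyrate and 52.5 ± 4.17 CPM in control (0.965). Summed over the oxidative branch, the libraries held 226, 229 and 218 CPM with butyrate and 248, 259 and 268 CPM in control, without overlap (exact permutation p = 0.1). The log2 ratio of the means was -0.20, and -0.12 with upper quartile scaling.

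Of the 4 members of the non-oxidative branch, which recycles pentoses into glycolysis, 0 were called by edgeR's adjusted p, at its unadjusted p under 0.05, by DESeq2 or by limma voom. Taldo1, for transaldolase, had 229, 208 and 94.1 CPM with butyrate and 73.6, 130 and 121 CPM in control. Butyrate replicate 3 fell within the control range, and the log2 fold change of 0.71 (SE 0.32, adjusted p = 0.0962) became 1.01 (0.00701) without it. Tkt, for transketolase, averaged 379 ± 48.4 CPM with butyrate and 420 ± 27.7 CPM in control (SD, n = 3, 0.294). Rpia and Rpe, for the ribose and ribulose phosphate isomerase and epimerase, had log2 fold changes of 0.05 (0.752) and 0.03 (0.920). Their signs turned without butyrate replicate 1 (Rpia, -0.05) and without butyrate replicate 3 (-0.18) or control replicate 1 (-0.11) for Rpe. Rpe shares 509 of its 50-base stretches (18.7%) with Kansl1l, which was called lower (-1.46, adjusted p = 0.000291).

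Summed over the 19 glycolysis members from hexokinase to pyruvate kinase, the libraries held 5484, 5126 and 6374 CPM with butyrate and 4633, 5438 and 5273 CPM in control. The groups overlapped (5662 ± 643 CPM with butyrate and 5115 ± 425 CPM in control, SD, n = 3, exact permutation p = 0.4). The sum over all 7 pentose phosphate members was 928 ± 84.3 CPM with butyrate and 931 ± 71.6 CPM in control (exact permutation p = 0.9).

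Of 35 other genes of the same pathways, 18 passed the filter, 6 rose and 1 fell (median log2 fold change 0.26), beside 23.5% and 22.5% of all genes tested. Galm, for the mutarotase that interconverts the forms of free glucose and galactose, had 90.4, 58.8 and 50.1 CPM with butyrate and 10.1, 4.64 and 5.52 CPM in control. Each butyrate library was above every control library (log2 fold change 3.30, SE 0.31, edgeR adjusted p = 9.38e-05). Adpgk, an ADP-dependent glucokinase gene, had 94.3, 102 and 106 CPM with butyrate and 64.8, 71.4 and 63.6 CPM in control (0.60, adjusted p = 0.000762). Slc2a9, a urate and sugar transporter gene, fell (-0.68, 0.00794).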

How the data were processed

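RNA of 6 libraries was sequenced on an Illumina GAIIx after TruSeq preparation, per the labels. The authors deposited raw read counts per gene number, 1 column per library; featureCounts, TopHat, Subread, CASAVA, edgeR and Picard and the build mm10 are listed, without versions or roles, per the submitters' processing notes. Of 27179 gene numbers, 25275 were named from RefSeq (GRCm38.p6) and 18 from GENCODE M21; 1886 unnamed numbers held 0.961% to 1.20% of counts. The members and lists were chosen with earlier results of these data known.

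Counts were tested with edgeR 4.0.16 (R 4.3.3): TMM, filterByExpr, quasi-likelihood F test, Benjamini-Hochberg adjustment over all genes tested. Standard errors are the log2 fold change over the square root of F. CPM are TMM-scaled, and levels per length use the union of GENCODE exons. Shares and sums were compared by exact permutation. Shared 50-base stretches and motifs were counted in GENCODE transcripts and RefSeq promoter windows; these 2 counts and their settings (the minimum of 100, and protein-coding transcripts in place of all transcripts of a gene, which gave Gapdh a lower share) were chosen after seeing the data. The fit was tested on simulated data, and the share of 2-fold changes it was required to recover was lowered after a first run fell short of it. Intervals cover counting error only.

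By rule, members called with at least 1.5-fold change and the 4 most abundant were given per library, and others were added after their values were seen; from other lists up to 2 called genes per direction with the smallest p were named, and others are said to be named after their values were seen. No replicates were duplicates: chi-square per degree of freedom between them was 5.77 to 11.9. Libraries with the same replicate number deviated together from their group means (r = 0.36, 0.20 and 0.35 over genes), and other pairs did not (-0.30 to -0.07). Deviations from a group mean cancel within the group, so the negative values follow in part from the positive ones. No label says that the numbers pair the samples, and whether they do was not tested. Alternatives were scaling by RLE, upper quartile or total count, DESeq2 1.42.0, limma 3.58.1 voom, no filter, a minimum of 5 CPM in 3 libraries, robust edgeR, the replicate block, glmTreat against a fold of 1.5, each library left out, and raw count shares.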

Additional observations from a re-analysis of the deposited data

How the results depend on the processing

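Of 495 log2 fold changes of members under alternatives, 447 kept their direction and side of the threshold, 15 calls were lost, 14 were gained and 19 signs turned, all of the last in members that were not called. Against a fold of 1.5, glmTreat called 1104 genes higher and 489 lower, and 4 members higher (Slc2a3, Hk2, Eno2 and Ldhb) and 1 lower (Aldoc), since it asks for a larger change; Hk1, Pfkl, Pgam1, Eno1, Ldha, Pgd and Hif1a lost their calls there. The replicate block called 10 members higher and 4 lower, with Pfkm and Pfkfb4 gained, and changed no other member call. Signs turned with upper quartile scaling for Slc2a1 (0.0484), G6pdx (0.0074) and Pgls (0.0759), with total count scaling for Pgls (0.0082), with no filter for Gpi1 (-0.0160) and Rpe (-0.0081), with at least 5 CPM in 3 libraries for Pgls (0.0212) and with limma voom for Gpi1 (-7.16e-05). Leaving out single libraries gave -0.117 to 0.0640 for Slc2a1, -0.18 to 0.12 for Gpi1, -0.0219 to 0.45 for Aldoa, -0.0589 to 0.0468 for Pgls, -0.18 to 0.20 for Rpe and -0.0543 to 0.14 for Rpia. Upper quartile scaling moved the log2 ratio of the oxidative branch to -0.12, and raw count shares moved the difference to -1.50 percentage points for Eno1 and -0.19 for Ldha. The log2 ratio of summed pentose phosphate CPM was 0.00093, 0.0785 and 0.0111 with RLE, upper quartile and total count scaling and -0.0760 to 0.0539 with single libraries left out; for the non-oxidative branch leaving out libraries gave -0.0280 to 0.14. Upper quartile scaling moved the median log2 fold change of all genes to 0.09. The causes were not tested. With 3 libraries a group, exact tests cannot go below 0.1. Genes with few counts a library, such as Eno2 in control (0 to 2) and Hk3 (4 to 13), are limited by depth.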

Other observations

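NADPH and glutathione genes moved both ways: of 16 tested, 6 rose and 6 fell, beside 23.5% and 22.5% of all genes tested. Hmox1, for heme oxygenase 1, had 46.8, 52.4 and 64.5 CPM with butyrate and 15.1, 11.9 and 22.1 CPM in control (log2 fold change 1.73, SE 0.21, edgeR adjusted p = 0.000323). Nfe2l2, for the oxidant-response factor NRF2, fell to 51.2 ± 1.61 CPM with butyrate, against 85.8 ± 5.54 CPM in control (SD, n = 3; -0.75, adjusted p = 0.000233). Idh1, for the cytosolic NADPH-making isocitrate dehydrogenase, fell as well (8.47 ± 0.478 CPM with butyrate and 21.2 ± 6.05 CPM in control; -1.33, 0.00125). Nadk, for NAD kinase, rose (0.32, 0.0261), but the call was lost without butyrate replicate 2 (0.31, 0.0726) or 3 (0.25, 0.0794) and without control replicate 1 (0.29, 0.0849) or 2 (0.34, 0.0647).

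Of 8 gluconeogenesis genes, 4 were tested, 1 rose and 1 fell, beside 23.5% and 22.5% of all genes tested. Pcx, for pyruvate carboxylase, had 18.1, 25.1 and 29.4 CPM with butyrate and 6.48, 8.53 and 8.60 CPM in control (log2 fold change 1.62, SE 0.21, edgeR adjusted p = 0.000416). Pck2, for the mitochondrial phosphoenolpyruvate carboxykinase, fell (48.5 ± 8.37 CPM with butyrate and 71.2 ± 7.32 CPM in control, SD, n = 3; -0.56, adjusted p = 0.00983).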
